A study of Mus musculus with 36 samples.

Results

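Colon tumours induced by azoxymethane (AOM) in Kit W-sash mice, called sash here, were compared with those of wild-type mice across all genes of a targeted immune and cancer panel. The members were chosen by their sample titles: 5 sash and 5 wild-type tumour libraries, 10 of the 36 samples of the series. The rest of the series holds preneoplastic colon samples of both genotypes, wild-type colon after AOM with or without the mast cell stabiliser cromolyn, and tumours grown from the MC-38 colon carcinoma line. Both tumour groups were of the C57BL/6 strain and 32 weeks old. Both had received 6 intraperitoneal injections of AOM, a carcinogen of the colon epithelium, at 10 mg/kg per week, and tumours were taken 18 weeks after the last one. The groups differed by the label in the Kit "sash" mutation of the strain C57BL/6 (cKitw-sh). Tumour-free colon of the same age was not analysed here, so each value describes tumour tissue as collected.

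Kit is the receptor for stem cell factor, and mast cells need its signal to develop and survive. The sash mutation is a rearrangement of regulatory DNA near Kit that leaves mast cells almost absent from adult tissues, and it also affects pigment cells, interstitial cells of the gut and, in the blood and spleen, myeloid cells. Neutrophils enter inflamed tissue along gradients of the chemokines that bind CXCR2. Epithelial cells, macrophages and stromal cells make these chemokines when interleukin 1, TNF or bacterial products switch on NF-kappaB, which also switches on its own inhibitor Nfkbia. Blood and spleen of these mice were not analysed here, and the part of circulating myeloid cells in any value below was not tested.

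Each library is a bulk sample, in which fewer cells of a type and less RNA per cell cannot be told apart. Total counts ran from 617698 to 1151533 in wild-type and from 1051059 to 1264354 in sash tumours, so depth moved with genotype. Epcam, a surface protein of epithelial cells, stood at 22437 to 34760 CPM (the count per 1000000 counts of a library's TMM-scaled size) in wild-type tumours and at 23558 to 29197 CPM in the sash tumours. The labels do not say that each library came from a separate mouse, so the tests see only the spread among libraries, which may in part be technical. Wild-type tumour 4 stood apart. It lay at 28.1 on the first principal component, which held 41% of the variance, while the other 9 tumours lay between -15.2 and 8.90. It had the highest value of all 10 tumours for 198 and the lowest for 190 of the 797 genes tested. Wild-type tumour 2 stood apart on the second component (18.2, 15.9% of the variance). Wild-type tumours varied more among themselves: the SD of log2(CPM + 1) was larger in wild type for 627 of 797 genes, and for 544 without wild-type tumour 4. Results that rest on these tumours are given with and without them.

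Of the 6 mast cell genes tested, 2 had a lower mean in sash with an unadjusted p below 0.05, namely Cpa3 and Kit, and neither passed in edgeR after adjustment. Cpa3, the carboxypeptidase of mast cell granules, measured 73.9, 84.6, 11.5, 11.4 and 22.4 CPM across wild-type tumours 1 to 5. The 5 sash tumours, in the same order, gave 9.92, 0, 0.769, 2.49 and 3.66 CPM, all below every wild-type tumour (log2 difference -3.57, SE 0.90, edgeR adjusted p = 0.0740). Kit itself stood at 95.3, 334, 136, 476 and 124 CPM in wild type and at 77.8, 49.7, 99.3, 80.5 and 67.7 CPM in sash. Its difference of -1.65 (SE 0.45) was -1.23 without wild-type tumour 4 and -0.66 without wild-type tumours 2 and 4, the tumours in which Kit was highest. The tryptase gene Tpsb2 stood at 14.1 to 56.7 CPM in wild type and at 0.828 to 29.9 CPM in sash, where tumours 4 and 5 lay inside the wild-type range. All 6 had a lower mean in sash (median log2 difference -1.01, against -0.04 over all genes). Members differed widely in the depth-scaled ratio of summed counts, wild type to sash. The ratio was 11.6 for Cpa3, 2.90 for Kit, 2.24 for Tpsb2, 1.96 for Cma1 and 1.38 for Hpgds. That of Gata2, a transcription factor of mast cells and other blood cells, was 1.20 (1.02 to 1.41, counting error only). Tpsab1, Ms4a2 and Slc18a2, the amine transporter of granules, had too few counts to be tested. Tpsab1 gave 7.25 from 17 wild-type and 3 sash counts, and Ms4a2 gave 2.88 from 9 and 4. Slc18a2 gave 0.953 (0.583 to 1.54, counting error only).

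No gene passed an adjusted p of 0.05 in the quasi-likelihood test of edgeR over 797 genes. The smallest adjusted p, 0.0684, was shared by 20 genes. The mean in sash was higher for 44.9% of genes and lower for 55.1%. The unadjusted p was below 0.05 for 19.9%, made up of 76 genes of higher mean in sash (9.54% of those tested) and 83 of lower mean (10.4%), and the group counts below are to be read against these shares. All 5 sash tumours lay above every wild-type tumour for 31 genes (3.89%, and 4.89% without wild-type tumour 4) and below for 12 (1.51%, and 1.88%). DESeq2 called 40 genes higher (4.31% of 928) and 42 lower (4.53%) on the same libraries. An edgeR fit that took its estimate of spread from all 25 AOM libraries called 41 higher (4.84% of 847) and 47 lower (5.55%). These 2 fits shared 68 called genes, 36 higher and 32 lower, and the genes described below come largely from these. The panel holds 3 of the housekeeping genes listed, Rpl13a, B2m and Tfrc, and Rpl13a made up most of their counts. With scaling to their sum the median difference over all genes moved by 0.13. The share of genes higher among those with an unadjusted p below 0.05 then went from 47.8% to 67.8%. Without wild-type tumour 4 the unadjusted p was below 0.05 for 66 higher (8.17% of 808) and 69 lower genes (8.54%). With every library thinned to the smallest total, edgeR called 0 genes, with an unadjusted p below 0.05 for 75 higher and 71 lower. The count of adjusted calls also depended on single tumours: 7 genes passed without wild-type tumour 4, 17 without sash tumour 1 and 1 without wild-type tumour 2.

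Among the gene groups with at least 4 tested members, the largest median difference was that of the neutrophil chemoattractant list, which holds 5 tested chemokines of the CXCR2 ligand family and the growth factor gene Csf2. All 6 tested genes had a higher mean in sash with an unadjusted p below 0.05 (median log2 difference 2.29), and all 6 did without wild-type tumour 4 (median 1.99). The promoters of 3 of these ligands and of Nfkbia are printed because all 4 genes were called higher by DESeq2 and because 1 run of 10 bases, a form of the NF-kappaB motif, is in each of them. It is the longest run common to the 4 windows on either strand, and Nfkbia was added to the ligands after its values were seen. The windows run from 250 bases before to 50 after the RefSeq start on the GRCm38.p6 build: chr5:90890995-90891294 (plus strand), chr5:90903649-90903948 (plus strand), chr5:90785851-90786150 (plus strand) and chr12:55492598-55492897 (minus strand). Capitals mark the run, which in Nfkbia lies on the other strand.
Cxcl1: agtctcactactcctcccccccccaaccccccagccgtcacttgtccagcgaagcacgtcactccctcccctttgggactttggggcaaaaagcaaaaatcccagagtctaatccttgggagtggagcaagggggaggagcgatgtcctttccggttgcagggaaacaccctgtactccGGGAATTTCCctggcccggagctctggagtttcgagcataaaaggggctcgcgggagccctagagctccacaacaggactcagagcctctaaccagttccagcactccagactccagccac
Cxcl2: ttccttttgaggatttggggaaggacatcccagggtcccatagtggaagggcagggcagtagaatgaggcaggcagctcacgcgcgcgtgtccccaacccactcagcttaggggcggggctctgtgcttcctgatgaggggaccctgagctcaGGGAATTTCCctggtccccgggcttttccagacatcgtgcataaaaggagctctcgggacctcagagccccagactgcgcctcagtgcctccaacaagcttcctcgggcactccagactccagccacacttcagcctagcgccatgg
Cxcl3: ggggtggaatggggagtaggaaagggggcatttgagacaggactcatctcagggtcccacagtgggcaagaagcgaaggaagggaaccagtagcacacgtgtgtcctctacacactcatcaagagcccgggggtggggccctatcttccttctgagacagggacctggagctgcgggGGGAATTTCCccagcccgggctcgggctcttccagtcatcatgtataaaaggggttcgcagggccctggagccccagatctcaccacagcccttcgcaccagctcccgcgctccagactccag
Nfkbia: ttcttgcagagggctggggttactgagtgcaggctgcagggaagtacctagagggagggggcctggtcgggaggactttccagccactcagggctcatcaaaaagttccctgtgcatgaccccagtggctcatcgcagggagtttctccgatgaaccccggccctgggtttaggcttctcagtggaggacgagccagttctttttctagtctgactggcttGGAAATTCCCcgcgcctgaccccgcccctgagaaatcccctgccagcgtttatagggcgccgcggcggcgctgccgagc

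The motif starts 71 bases before the start site in Cxcl1, 97 before it in Cxcl2, 73 in Cxcl3 and 29 in Nfkbia. On either strand it is in 29 of 32851 RefSeq promoters of this length (0.0883%) and in 5 of 945 panel promoters (0.529%), the fifth being that of the eotaxin receptor gene Ccr3. These matches describe letters, and binding was not measured.

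Cxcl2, which macrophages and epithelial cells release to draw neutrophils, measured 350, 531, 368, 39.3 and 373 CPM across wild-type tumours 1 to 5. The sash tumours gave 1613, 1463, 2630, 5231 and 1895 CPM. The lowest sash tumour was above the highest wild-type tumour (log2 difference 2.92, SE 0.59, edgeR adjusted p = 0.0684, DESeq2 adjusted p = 5.47e-05). Cxcl1, its close relative, stood at 366, 485, 404, 35.2 and 604 CPM in wild type and 767, 1276, 3016, 2951 and 2280 CPM in sash. Cxcl3 stood at 170, 289, 150, 11.4 and 230 CPM against 506, 710, 804, 1117 and 801 CPM. The groups did not overlap in either gene, and wild-type tumour 4 was far below the other wild-type tumours in all 3 ligands. Without it the differences were 2.64 for Cxcl2, 2.12 for Cxcl1 and 1.88 for Cxcl3, and all 3 then passed in edgeR, together with Cxcr2, Fpr1 and Fpr2 on the higher side and Gpc4 on the lower.

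Cxcl5 is a ligand made mainly by epithelium. Wild-type tumours had 4113, 4783, 5381, 705 and 6435 CPM and sash tumours 10986, 10380, 8935, 11173 and 5267 CPM. Sash tumour 5 lay inside the wild-type range, and the difference of 1.10 (SE 0.46) did not pass in any of the 3 fits. Ppbp, a platelet chemokine of the same family, stood at 50.7 to 175 CPM in wild type and 126 to 794 CPM in sash (1.40, SE 0.52). Csf2, which encodes the growth factor GM-CSF for neutrophils and macrophages, stood at 17.2, 14.1, 13.6, 1.03 and 18.9 CPM against 22.1, 58.0, 75.4, 128 and 65.9 CPM, with no overlap (2.40, SE 0.60, DESeq2 adjusted p = 0.00216).

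On the receiving side, 4 of 6 tested neutrophil genes were higher with an unadjusted p below 0.05 (median 1.14), and 4 of 6 were so without wild-type tumour 4 (median 0.90). Cxcr2, the receptor of these ligands, stood at 82.1, 93.0, 107, 30.0 and 106 CPM in wild type and at 193, 188, 212, 390 and 348 CPM in sash. Fpr1, which senses bacterial formyl peptides, stood at 27.1, 19.7, 24.1, 2.07 and 26.0 CPM against 64.1, 71.2, 93.1, 120 and 96.1 CPM. The groups did not overlap in either gene, and the differences of 1.65 and 2.14 were 1.43 and 1.84 without wild-type tumour 4. Fpr2, a related receptor, was also separate, at 14.5 to 96.6 CPM against 156 to 230 CPM. Csf3r, the G-CSF receptor of neutrophils, stood at 30.0 to 126 CPM in wild type and 108 to 224 CPM in sash (0.89, SE 0.38). The other 2 members of the list did not have an unadjusted p below 0.05. Itgam, an integrin of neutrophils and macrophages, had a difference of 0.59 (SE 0.33), and Cybb, a subunit of the NADPH oxidase, one of -0.07 (SE 0.38), with no stable sign. The summed level of the neutrophil list ran from 205 to 951 CPM in wild type and from 971 to 1337 CPM in sash.

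**Figure D1:**
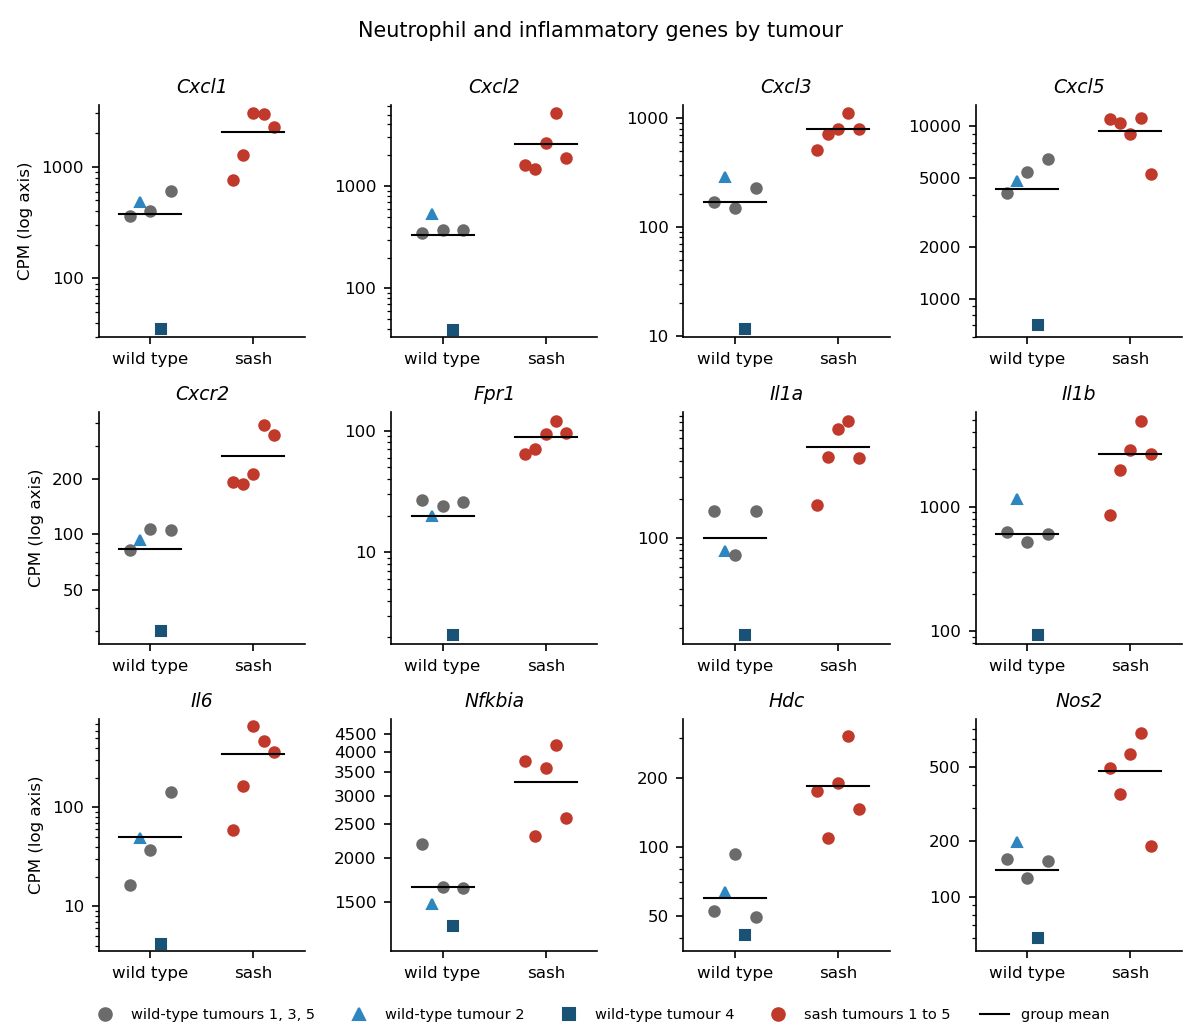
CPM on a log axis in each of the 5 wild-type and 5 sash tumours for 12 genes, 1 panel a gene, with the group mean as a bar; wild-type tumours 2 and 4 have their own symbols. In Cxcl1, Cxcl2, Cxcl3, Cxcr2, Fpr1, Il1a, Nfkbia and Hdc every sash tumour lies above every wild-type tumour, and wild-type tumour 4 is the lowest point of each panel.

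Of the cytokines, receptors and processing genes of the interleukin 1 and interleukin 6 list, 5 of 11 had a higher mean with an unadjusted p below 0.05, and 0 a lower one (median 0.79). Of the other 6 genes, 3 had a higher and 3 a lower mean. The counts were also 5 and 0 without wild-type tumour 4 (median 0.56). Il1a, an alarm cytokine stored in epithelial cells, stood at 163, 78.9, 73.5, 17.6 and 163 CPM in wild type and 180, 427, 708, 809 and 417 CPM in sash (2.33, SE 0.56). Il1b, made by activated myeloid cells, stood at 623, 1165, 523, 93.0 and 599 CPM against 859, 1989, 2873, 4869 and 2630 CPM (2.11, SE 0.59). The groups lay narrowly apart in Il1a, while sash tumour 1 lay below wild-type tumour 2 in Il1b. Il6 stood at 16.4, 49.3, 36.7, 4.14 and 142 CPM in wild type and 58.7, 166, 663, 476 and 363 CPM in sash (2.78, SE 0.84, DESeq2 adjusted p = 0.00716). Wild-type tumour 5 was the highest of its group in Il6 and above sash tumour 1. Il33, an alarmin of epithelial and stromal nuclei that activates mast cells through its receptor, stood at 487, 668, 429, 170 and 432 CPM against 846, 952, 1734, 820 and 1153 CPM (1.30, SE 0.34). All sash tumours exceeded all wild-type tumours in Il33.

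The 3 genes of lower mean in that list were Casp1, Pycard and Il18. Casp1, the protease that cleaves the precursors of interleukins 1 beta and 18, had a mean of 1315 ± 247 CPM (SD, n = 5) in sash and 1937 ± 969 CPM (SD, n = 5) in wild type (-0.58, SE 0.28). Its adaptor Pycard had a difference of -0.57 (SE 0.35) and Il18 one of -0.54 (SE 0.31), and none of the 3 had an unadjusted p below 0.05. Wild-type tumour 4 held the highest value of all 3 genes, and without it the differences were -0.25, -0.19 and -0.37.

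Of the 11 genes of the NF-kappaB and feedback list, 3 were higher, namely Nfkbia, Rgs16 and Socs3, and 1 was lower, namely Ikbkg, with an unadjusted p below 0.05 (median 0.25). Nfkbia, which holds NF-kappaB in the cytoplasm, stood at 2187, 1478, 1660, 1284 and 1649 CPM in wild type and 3759, 2311, 3607, 4197 and 2600 CPM in sash (0.98, SE 0.20, DESeq2 adjusted p = 0.00171). Rgs16, which shortens G protein signals such as those of chemokine receptors, stood at 173, 159, 179, 131 and 249 CPM against 255, 316, 688, 1024 and 384 CPM (1.56, SE 0.38). Neither gene had overlapping groups, and neither depended on wild-type tumour 4 (0.89 and 1.46 without it). Socs3, the inhibitor induced by interleukin 6 family cytokines, had a mean of 600 ± 101 CPM (SD, n = 5) against 305 ± 168 CPM (SD, n = 5), a difference of 0.95 (SE 0.36) that did not pass in any of the 3 fits. Ikbkg encodes the regulatory subunit of the kinase that releases NF-kappaB. In a separate list of microbial sensing 1 of 4 tested genes, Cd14, was higher and 0 lower with an unadjusted p below 0.05 (median -0.20). By mean, 2 of those genes were higher and 2 lower. Cd14, the co-receptor for bacterial endotoxin, stood at 1074, 1700, 937, 918 and 941 CPM in wild type and 1682, 2162, 2036, 2477 and 2137 CPM in sash (0.89, SE 0.20). Sash tumour 1 lay just below wild-type tumour 2, and without wild-type tumour 2 Cd14 was the only gene to pass in edgeR.

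Of the enzymes of histamine, arginine and tryptophan 3 of 7 were higher with an unadjusted p below 0.05 and 0 lower (median 0.46). Hdc, which makes histamine in mast cells and also in neutrophils and other myeloid cells, stood at 52.6, 63.4, 93.4, 41.4 and 49.6 CPM in wild type. The sash tumours had 175, 109, 191, 306 and 146 CPM, above every wild-type tumour (1.60, SE 0.33, DESeq2 adjusted p = 0.000399), the opposite direction to Cpa3. Arg2, the mitochondrial arginase, was separate too, at 75.6 to 178 CPM against 220 to 517 CPM (1.40, SE 0.32). Nos2, the inducible nitric oxide synthase, stood at 159, 197, 126, 60.0 and 156 CPM in wild type and 489, 358, 586, 761 and 186 CPM in sash, with sash tumour 5 inside the wild-type range (1.74, SE 0.40). Arg1, the cytoplasmic arginase of macrophages, overlapped widely, at 424 to 5139 CPM against 1805 to 3928 CPM.

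Among the other chemokines, 4 of 13 tested genes were higher with an unadjusted p below 0.05 and 0 lower (median 0.31). Ccl4, which attracts monocytes and T cells, stood at 70.6, 59.2, 26.2, 9.30 and 79.2 CPM in wild type and 85.4, 126, 264, 434 and 184 CPM in sash, without overlap (2.14, SE 0.59). Its neighbour Ccl3 stood at 36.2 to 278 CPM against 248 to 1228 CPM (1.91, SE 0.56), and the monocyte attractant Ccl2 at 52.7 to 756 CPM against 420 to 1506 CPM (1.21, SE 0.54). Of the TNF family, 4 of 16 genes were higher and 1 lower with an unadjusted p below 0.05 (median 0.09). Tnfsf9, the ligand of the T cell costimulator 4-1BB, stood at 108, 77.5, 127, 94.1 and 124 CPM in wild type and 146, 174, 362, 496 and 190 CPM in sash (1.35, SE 0.35). Tnfrsf1b, the second TNF receptor, stood at 435 to 668 CPM against 746 to 1100 CPM without overlap (0.73, SE 0.16). Tnfrsf9, the receptor gene of Tnfsf9, is counted in the immune checkpoint list and not in this one. There 1 of 13 genes was higher and 1 lower with an unadjusted p below 0.05 (median 0.14). Tnfrsf9 stood at 19.6 to 169 CPM against 132 to 406 CPM (1.48, SE 0.50). Ligand and receptor of the 4-1BB pair were thus both called higher by DESeq2 and by the fit of 25 libraries.

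In the T cell list 1 of 13 genes was higher and 0 lower with an unadjusted p below 0.05 (median -0.09). In the cytotoxic and NK cell list 1 gene was higher and 2 were lower of 7 (median -0.81, and -0.89 without wild-type tumour 4). Xcl1, a chemokine of NK cells and CD8 T cells that draws cross-presenting dendritic cells, stood at 15.6, 22.5, 13.6, 23.8 and 18.9 CPM in wild type. The sash tumours had 4.58, 11.6, 6.16, 3.32 and 1.83 CPM, below every wild-type tumour (-1.77, SE 0.46, DESeq2 adjusted p = 0.00588). Klrd1, the CD94 subunit of NK receptors, stood at 18.6 to 56.4 CPM against 16.5 to 24.8 CPM (-0.84, SE 0.34). Gzmb, a protease of cytotoxic granules, went the other way, at 23.8, 32.4, 16.8, 11.4 and 26.0 CPM in wild type and 52.6, 42.2, 47.7, 57.3 and 40.3 CPM in sash (1.10, SE 0.33). Both Xcl1 and Gzmb separated the groups completely, in opposite directions. Of 11 B and plasma cell genes on the panel 3 were tested, all of lower mean in sash (median -0.62), and 0 had an unadjusted p below 0.05. The 8 untested ones summed to 598 counts in wild type and 149 in sash. Wild-type tumour 2, which stood apart on the second component, held 177 of the 203 wild-type counts of Ms4a1, the B cell antigen CD20, against 37 counts in all sash tumours. Igkc, an immunoglobulin light chain gene outside that list, went the other way, with 42734 counts in all wild-type and 125113 in all sash tumours, not scaled for depth. Its counts overlapped, at 1110 to 27909 in wild-type and 11292 to 48945 in sash tumours. Ms4a1 and Igkc were picked after their values were seen.

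Il17a, a cytokine of lymphocytes that acts on epithelium and stroma, stood at 39.4, 45.1, 12.6, 5.17 and 21.3 CPM in wild type and 19.1, 101, 196, 173 and 58.6 CPM in sash (2.12, SE 0.68). Sash tumour 1 lay inside the wild-type range, and the other sash tumours lay above it. Few interferon and MHC genes had an unadjusted p below 0.05. In the type I interferon list 0 of 12 were higher and 1 lower by that limit (median -0.36), and 10 had a lower mean. In the interferon-gamma list 0 of 16 were higher and 1 lower (median -0.28), and 12 had a lower mean. In the MHC class I list 1 of 16 was higher and 0 lower (median -0.23), and 12 had a lower mean. The share of lower means over all genes was 55.1%. Of 6 MHC class II genes 0 were in either count (median 0.30). Irf7, the interferon regulatory factor that was lower in the type I list, stood at 407 to 2103 CPM in wild type and 273 to 852 CPM in sash (-1.23, SE 0.45). Amplicons of near-identical genes, such as those of the H2, Oas and Ceacam families, may share reads. In the macrophage list 1 gene was higher and 1 lower of 10 (median 0.18). The higher one was Cd80, a costimulatory ligand (1.25, SE 0.40), and the lower one Maf, a macrophage transcription factor (-0.87, SE 0.30).

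**Figure D2:**
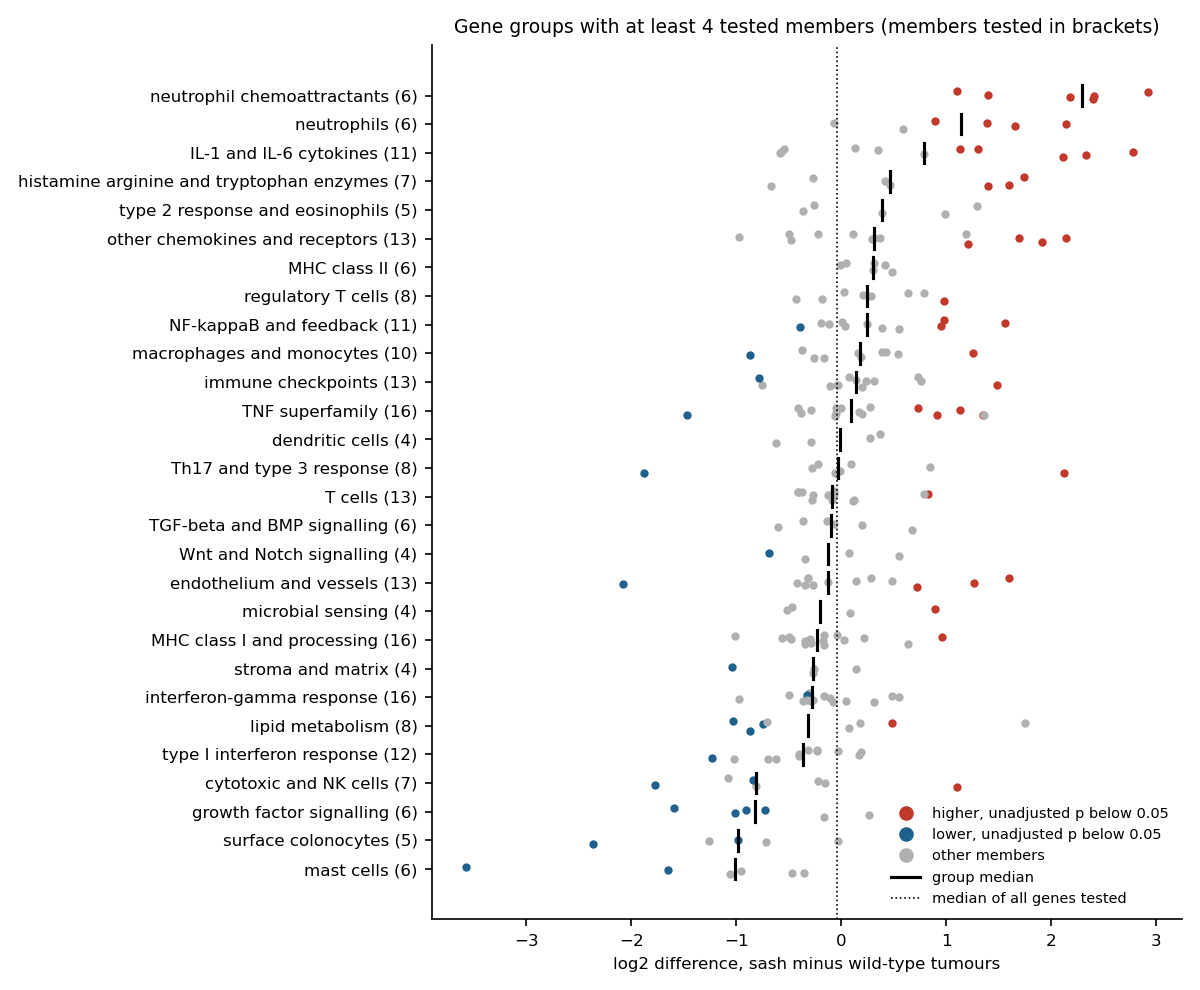
Each point is the log2 difference (sash minus wild-type tumours) of 1 tested member of a gene group, coloured by direction where its unadjusted p was below 0.05; bars are group medians and the dotted line is the median of all 797 genes (-0.04). The neutrophil chemoattractants (median 2.29) and neutrophil genes (1.14) stand farthest right, and the mast cell genes (-1.01) farthest left.

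In vessel genes 3 of 13, namely Selp, Sele and Vegfa, were higher and 1, Edn2, was lower with an unadjusted p below 0.05 (median -0.13). Selp, the P-selectin on which neutrophils begin to roll, stood at 74.7, 56.4, 103, 49.6 and 83.9 CPM in wild type and 166, 202, 200, 88.8 and 236 CPM in sash (1.26, SE 0.30, DESeq2 adjusted p = 0.00276). Sash tumour 4 was the exception, below wild-type tumour 3. Vegfa, the main growth factor of blood vessels, was separate at 606 to 858 CPM against 899 to 1931 CPM (0.72, SE 0.23). The leukocyte adhesion genes Icam1 (0.48, SE 0.34) and Vcam1 (-0.32, SE 0.30) did not have an unadjusted p below 0.05.

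Of the genes of growth factor signalling 4 of 6 were lower with an unadjusted p below 0.05 and 0 higher, with or without wild-type tumour 4 (median -0.82 and -0.72). Erbb2, a receptor tyrosine kinase of epithelial growth, stood at 770, 830, 765, 1260 and 503 CPM in wild type and 510, 395, 444, 423 and 454 CPM in sash (-0.91, SE 0.21, DESeq2 adjusted p = 0.00329). Fgf18, a fibroblast growth factor that colon tumours can secrete, stood at 46.0, 29.6, 27.3, 76.5 and 20.1 CPM against 13.7, 12.4, 16.9, 11.6 and 11.9 CPM (-1.59, SE 0.38). Inpp4b, a phosphatase of the PI3K pathway, stood at 149, 268, 288, 354 and 209 CPM against 162, 104, 122, 134 and 114 CPM (-1.01, SE 0.24). Of these 3 only Fgf18 separated the groups: wild-type tumour 5 in Erbb2 and wild-type tumour 1 in Inpp4b fell inside the sash range. The sash tumours were closely alike in Erbb2 and Fgf18, with SDs of 42.9 and 2.17 CPM against 274 and 22.6 CPM in wild type.

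Gpc4, Zeb1, Foxn3 and Mef2c, which do not belong to 1 list, were among the 12 genes in which every sash tumour lay below every wild-type tumour. Gpc4 is in the Wnt and Notch signalling list. There it was the 1 gene of 4 tested that was lower with an unadjusted p below 0.05, and 0 were higher (median -0.13). Gpc4, a heparan sulfate proteoglycan that binds growth factors and Wnt ligands, stood at 940, 1133, 1091, 1248 and 1082 CPM in wild type and 799, 599, 692, 674 and 687 CPM in sash. The groups lay apart by a small and even step (-0.69, SE 0.12, DESeq2 adjusted p = 2.18e-05), which was -0.65 without wild-type tumour 4. Zeb1, a repressor of epithelial genes expressed in stroma, stood at 152, 200, 160, 267 and 203 CPM against 114, 99.3, 125, 115 and 120 CPM (-0.79, SE 0.20). Foxn3, a forkhead repressor, stood at 461 to 627 CPM against 277 to 400 CPM (-0.65, SE 0.16), and Mef2c, a transcription factor of muscle, vessels and lymphocytes, at 88.9 to 207 CPM against 40.7 to 69.5 CPM (-1.15, SE 0.31). In the stroma list 1 of 4 genes, the fibroblast protease gene Fap, was lower with an unadjusted p below 0.05, and the collagen gene Col3a1 differed by -0.27 (SE 0.31).

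**Figure D3:**
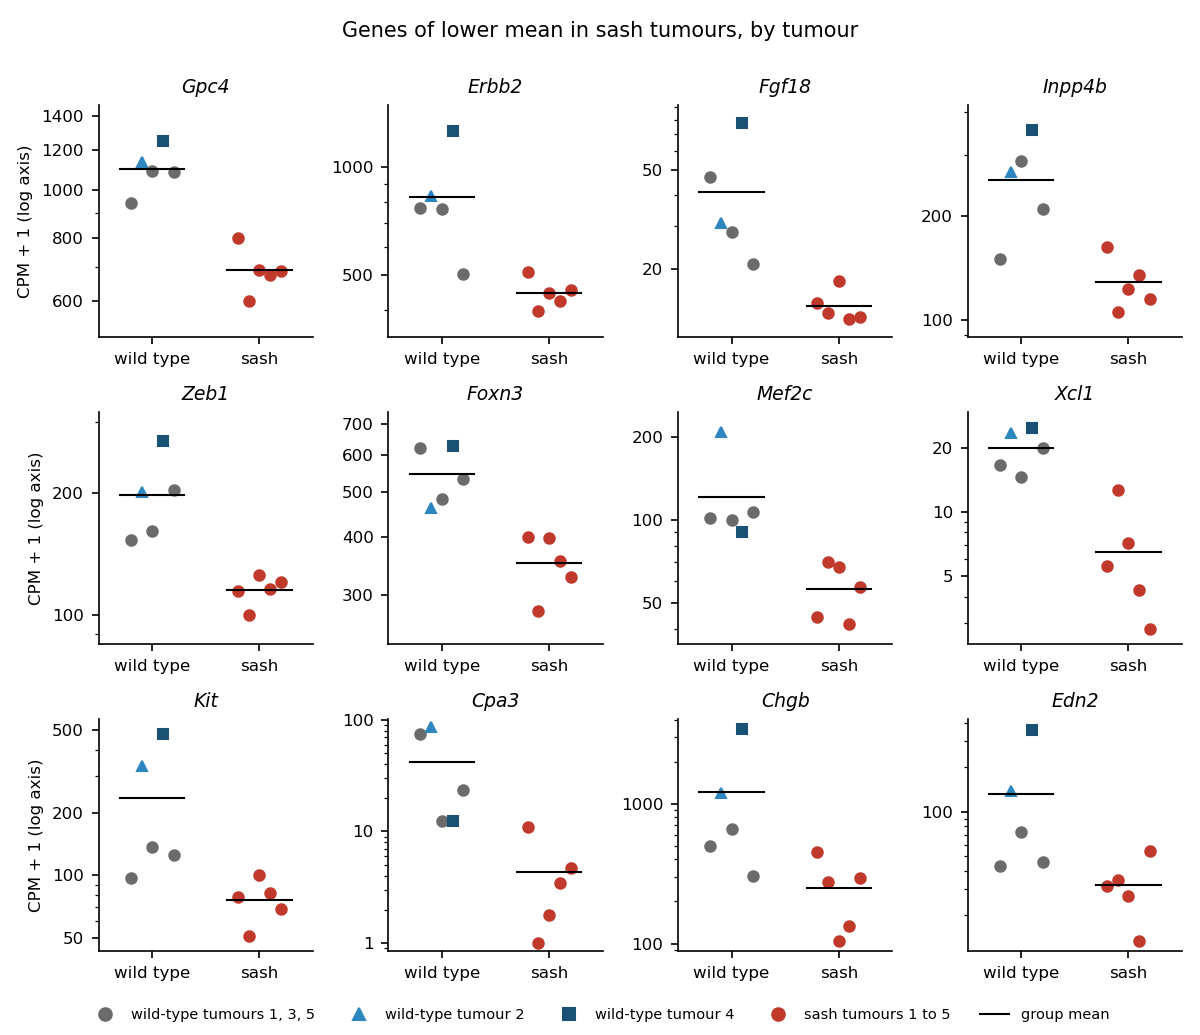
CPM + 1 on a log axis in each tumour for 12 genes of lower mean in sash, with the group mean as a bar and separate symbols for wild-type tumours 2 and 4. Gpc4, Fgf18, Zeb1, Foxn3, Mef2c, Xcl1 and Cpa3 separate the groups, while in Kit, Chgb and Edn2 the wild-type mean is set by tumours 4 and 2.

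In 5 further genes of lower mean, which do not belong to 1 list, the difference shrank on leaving out wild-type tumours 4 and 2: Car4, Chgb, Vdr, Hpgd and Edn2. Car4, a carbonic anhydrase of surface colonocytes, stood at 230, 3868, 3802, 14904 and 360 CPM in wild type and 1431, 1322, 548, 95.5 and 1153 CPM in sash. The groups overlapped across most of their range, and the difference of -2.36 (SE 1.03) was -1.22 without wild-type tumour 4 and -0.69 without wild-type tumours 2 and 4. Chgb, the chromogranin B of hormone-secreting cells, stood at 494, 1196, 656, 3408 and 302 CPM against 447, 273, 103, 132 and 291 CPM. Its difference of -2.29 (SE 0.65) was -1.45 and -0.96 under the same omissions. The difference of Vdr, the vitamin D receptor, went from -1.83 to -0.51 without wild-type tumours 2 and 4. That of Hpgd, which degrades prostaglandins in differentiated epithelium, went from -1.75 to -1.04 without tumour 4 and to -0.79 without both, and that of Edn2, an endothelin of the intestinal epithelium, from -2.08 to -1.28 and -0.76. With all 10 tumours DESeq2 called Chgb, Vdr, Hpgd and Edn2 lower, but not Car4 (adjusted p = 0.149). Of the 5 surface colonocyte genes tested 2 were lower with an unadjusted p below 0.05 (median -0.98), and 1 without wild-type tumour 4 (median -0.94). Ptgs1, the constitutive cyclooxygenase, differed in not depending on those tumours: it stood at 301 to 852 CPM in wild type and 180 to 352 CPM in sash (-1.03, SE 0.30, and -1.25 without both).

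**Figure D4:**
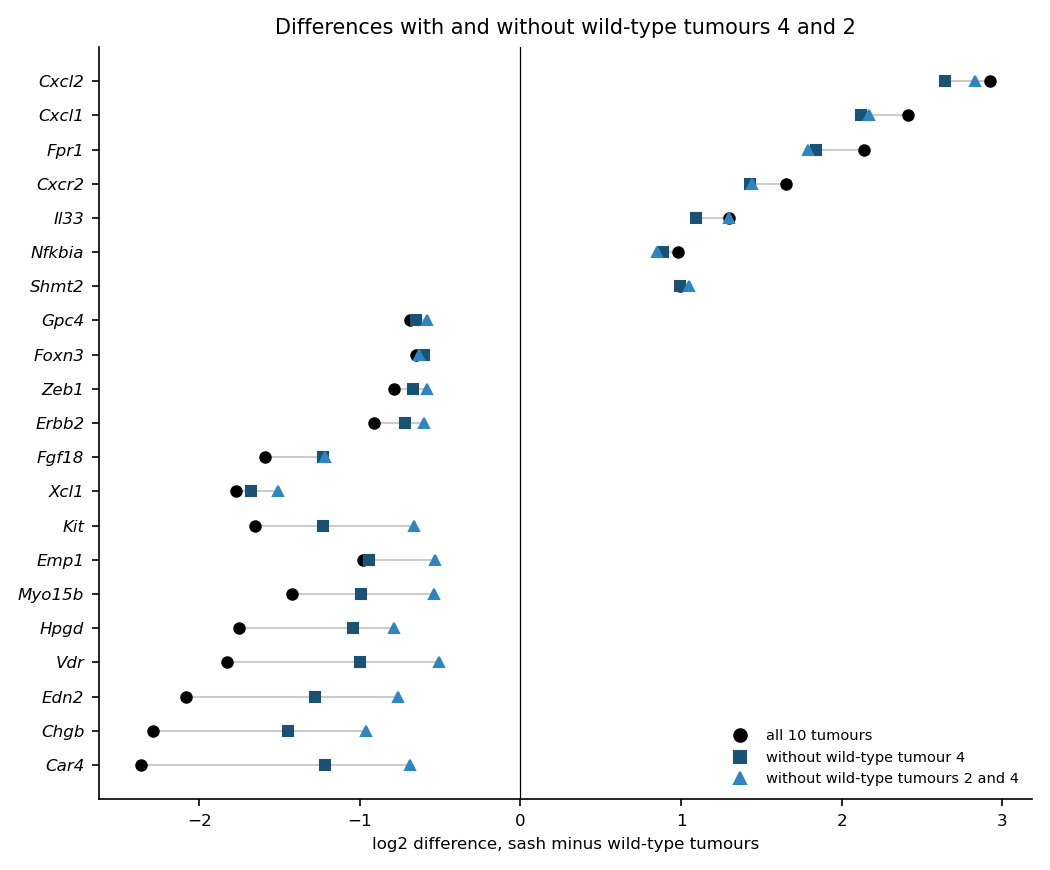
Log2 difference (sash minus wild-type tumours) for 21 genes with all 10 tumours, without wild-type tumour 4 and without wild-type tumours 2 and 4. The values of Cxcl2, Nfkbia, Shmt2, Gpc4 and Foxn3 stay close together, while Car4 moves from -2.36 to -0.69 and Vdr from -1.83 to -0.51.

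Shmt2 and Hells kept their difference without wild-type tumour 4. Shmt2, the mitochondrial enzyme that turns serine into glycine and one-carbon units, stood at 563, 722, 836, 684 and 616 CPM in wild type and 1162, 1165, 1767, 1707 and 1102 CPM in sash. The groups were far apart (0.99, SE 0.18, edgeR adjusted p = 0.0684, DESeq2 adjusted p = 0.000375), and the difference was 0.99 without wild-type tumour 4 too. Atf4, the transcription factor of the amino acid response that switches on such enzymes, had a mean of 2624 ± 641 CPM (SD, n = 5) against 1589 ± 279 CPM (SD, n = 5). Hells, a chromatin remodeller of dividing cells, stood at 376, 357, 516, 368 and 356 CPM in wild type and 497, 710, 967, 848 and 684 CPM in sash (0.89, SE 0.19, and 0.86 without wild-type tumour 4). Of the 3 tested genes of the proliferation list, Hells and Birc5 were higher with an unadjusted p below 0.05 (median 0.60), and without wild-type tumour 4 only Hells was (median 0.49). Birc5, a protein of mitosis and cell survival, differed by 0.60 (SE 0.24), and by 0.49 without that tumour. Mki67, the usual marker of dividing cells, differed by 0.23 (SE 0.28). Of 44 tested proteasome genes, a list made after the values were seen, 2 were higher and 0 lower with an unadjusted p below 0.05 (median 0.01).

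The same genotypes were compared in preneoplastic colon samples of mice 14 weeks old, taken 3 weeks after 3 injections of AOM (n = 3 each), and the difference between the sash effects at both stages was tested over 848 genes. The edgeR test called 0 genes (smallest adjusted p 0.0611), with an unadjusted p below 0.05 for 128 (15.1%). DESeq2 called 20 (2.08% of 960), and the fit of all 25 libraries called 4 (0.472%): Fgf18, Gpc4, Lgals9 and H2-T24. Leaving out wild-type tumour 5 gave 7 higher and 3 lower calls in edgeR, leaving out wild-type lesion 3 gave 2 and 1, and leaving out wild-type tumour 2 gave 1 higher. Age, AOM dose and tissue state all differ between the stages and cannot be told apart.

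Fgf18 and Gpc4 had opposite signs at the stages. In lesions Fgf18 stood at 10.6, 4.54 and 10.4 CPM in wild type and 21.5, 22.2 and 41.3 CPM in sash, a difference of 1.70 (SE 0.53) against -1.56 (SE 0.38) in tumours in the same fit. Gpc4 stood at 378, 371 and 695 CPM in wild-type and 705, 717 and 869 CPM in sash lesions, a difference of 0.64 (SE 0.22) against -0.67 (SE 0.17). In both genes the groups did not overlap at either stage, in opposite directions (adjusted p of the difference 0.00733 for Fgf18 and 0.0215 for Gpc4 in the edgeR fit of 25 libraries, 0.0611 and 0.0641 in that of 16). Lgals9, the gene of galectin 9, and H2-T24, a nonclassical class I gene, had lower means in sash lesions (-1.39, SE 0.25, and -2.66, SE 0.48) and differed by 0.17 (SE 0.19) and 0.06 (SE 0.36) in tumours. Cxcl2 had like differences at both stages, 2.93 (SE 0.50) in tumours and 3.16 (SE 1.11) in lesions. Its level was far lower in lesions, at 2.31 ± 1.08 CPM in wild type and 20.9 ± 2.32 CPM in sash (SD, n = 3 each). By library total, 1 count was 0.870 to 1.62 CPM in the wild-type lesions, so the wild-type mean rests on very few counts. The difference of -0.23 between the stages had an SE of 1.04, so these libraries could not resolve a change of that size. Cxcl1 (2.64, SE 0.82) and Nfkbia (0.85, SE 0.23) also had higher means in sash lesions. The lesion differences of Cxcl2, Cxcl1 and Nfkbia did not pass in edgeR (adjusted p = 0.191, 0.147 and 0.107). In lesions Cxcl3 differed by 0.25 (SE 1.42), Csf2 by 0.03 (SE 1.00) and Ppbp by -0.01 (SE 1.03), all with wide SEs. Other inflammatory genes were unlike Cxcl2. In lesions Il1b differed by 0.45 (SE 0.72), Hdc by 0.03 (SE 0.53), Tnfrsf1b by -0.16 (SE 0.21) and Il33 by -0.54 (SE 0.51). In tumours in the same fit these were 2.13, 1.61, 0.75 and 1.33. The stage difference of these genes did not pass in any of the 3 fits.

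**Figure D5:**
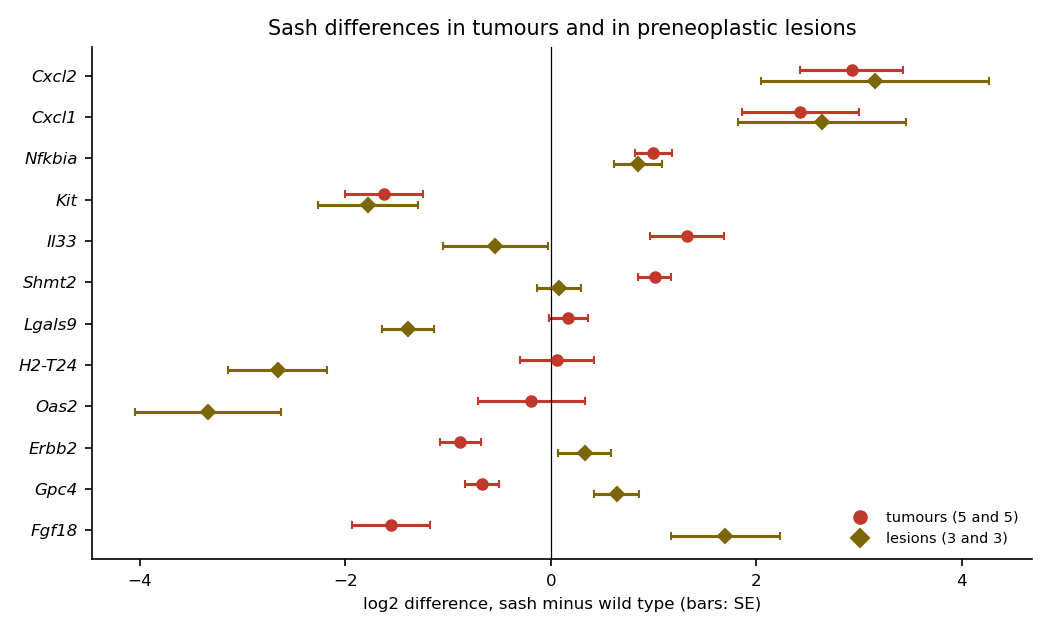
Log2 difference (sash minus wild type) with its SE for 12 genes in tumours (5 and 5 libraries) and lesions (3 and 3), from 1 fit of 16 libraries. Cxcl2, Cxcl1, Nfkbia and Kit have like values at both stages, and Fgf18 and Gpc4 lie on opposite sides of 0. Il33 is at 1.33 in tumours and at -0.54 in lesions.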

How the data were processed

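RNA of 10 azoxymethane tumours was measured with the QIAseq Mouse Immuno-Oncology panel on a MiSeq, per the labels. Such a panel amplifies 1 short stretch of each transcript. The authors deposited whole-number counts per gene without normalisation, and per the submitters' processing notes the build was mm9 and DESeq2 was used. The sources used here do not give the aligner, the counter or whether molecular tags were used. Of 993 entries, 988 are genes and 5 are controls at 0 counts, which were dropped. Sequences came from RefSeq on GRCm38.p6, matched by symbol (945 panel promoters), and no coordinates of the files' build were used.

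Counts were tested with edgeR 4.0.16 in R 4.3.3 (TMM scaling, filterByExpr with a minimum count of 10 and total of 15, robust quasi-likelihood, Benjamini-Hochberg adjustment over all genes tested, threshold 0.05). The difference from lesions came from a fit of 16 libraries. Alternatives were DESeq2 1.42.0, a fit of all 25 azoxymethane libraries, other scalings, no filter, a replicate block, thinning to 617698 counts and leaving out libraries. On simulated data the fit recovered 52.0% of genes changed 2-fold and 94.9% of those changed 4-fold over 787 genes, with 5 false calls. The simulation drew genes independently, gave both groups the same spread per gene and had no tumour that stood apart. These tumours differ from it in spread and in wild-type tumour 4, so its recovery cannot be taken as that of the real comparison. Counting intervals cover counting error only. Replicates were not taken as copies of 1 library, since the chi-square per degree of freedom between them was at least 41.5.

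Named genes are Kit and the mast cell list, the 35 genes of smallest p in each direction, up to 5 of smallest p of each of 36 lists (790 names, 251 tested), those called by both DESeq2 and the fit of 25 libraries, and 10 in each direction for the lesions. Arg1, Casp1, Cxcl5, Cybb, Igkc, Ms4a1, Pycard and Vcam1 fall outside this rule and were added after their values were seen. The members, lists and rule were chosen with earlier results of these data known. Results of a few of these genes are left out.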

Additional observations from a re-analysis of the deposited data

Results flagged for a closer look

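In 14 of the 160 groups of 5 tumours checked, over the named genes and the total counts, 1 tumour lay apart by more than 0.71 of the group's whole range. Cma1, Hpgds and Igkc were not among the genes checked. Chance gives such a gap in about 1 of 20 groups. Wild-type tumour 4 was the highest of its group and apart in 5 genes: Car4 at 14904 CPM, Chgb at 3408 CPM, Hpgd at 4415 CPM, Mlph at 1958 CPM and Pycard at 6864 CPM. Wild-type tumour 2 was apart in Cd14 at 1700 CPM and in the transcription factor gene Mef2c at 207 CPM, and wild-type tumour 3 in Hells at 516 CPM. Among the sash tumours, tumour 4 was apart in Ppbp at 794 CPM and in Vegfa at 1931 CPM, tumour 1 in Rab38 at 54.9 CPM, tumour 3 in Birc5 at 3981 CPM, tumour 5 in Gata2 at 105 CPM and tumour 2, as the lowest, in Epcam at 23558 CPM.

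Fgf18 and Gpc4 stand out because every sash tumour lay below every wild-type tumour while every sash lesion lay above every wild-type lesion. The log2 sash difference in tumours minus that in lesions was -3.26 (SE 0.66) for Fgf18 and -1.31 (SE 0.28) for Gpc4. This difference was tested in the fits named above and did not pass in edgeR on 16 libraries.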

How the results depend on the processing

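In the tumours RLE scaling, housekeeping scaling, no low-count filter, a dispersion that was not robust, thinning and the replicate block each gave 0 adjusted calls in edgeR. Scaling by library totals gave 1 higher (Shmt2) and 1 lower (Gpc4), DESeq2 40 and 42, the fit of all 25 libraries 41 and 47, and leaving out wild-type tumours 2 and 4 together 5 and 1. Leaving out 1 tumour gave 0 to 13 higher and 0 to 4 lower calls. Against 76 higher and 83 lower genes with an unadjusted p below 0.05, leaving out 1 tumour gave 53 to 85 and 53 to 98, the lowest lower count being that without sash tumour 3. Housekeeping scaling gave 101 and 48. With the replicate block the counts were 63 and 50, and tumours of the same number share only a number: their deviations correlated at -0.351 to 0.234. For the difference from lesions, the block gave 0, DESeq2 8 higher and 12 lower, the fit of 25 libraries 2 and 2, and leaving out 1 library 0 to 7 and 0 to 3. Where a count moved, the cause was not tested.

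Of 79 named genes, 75 kept the sign of their tumour difference in the alternatives that gave a value. Cma1, Hpgds and Igkc were not among the 79 genes. After thinning, Cpa3, Sele and Xcl1 no longer passed the low-count filter and gave none. Cybb was at 0.00 with housekeeping scaling, 0.18 with the replicate block, 0.05 after thinning and between -0.27 and 0.41 on leaving out 1 tumour. Epcam was at 0.12 with housekeeping scaling, 0.01 with library totals, 0.01 without wild-type tumours 2 and 4 and between -0.09 and 0.05 on leaving out 1. H2-T24 lay between -0.21 and 0.19 and Lgals9 between -0.01 and 0.24 on leaving out 1. Genes with few counts, such as Cpa3 in sash tumours, are limited by depth.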

Other observations

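Some genes called by DESeq2 belong to none of the groups above. Of the RNA-processing genes, Srsf7, a splicing factor, had 374, 444, 439, 295 and 262 CPM across wild-type tumours 1 to 5 and 522, 625, 734, 569 and 590 CPM across the sash tumours (log2 difference 0.72, SE 0.19). The helicase gene Ddx17 was also separate, at 2511 to 2845 CPM against 2931 to 4346 CPM. Rbm3, a cold-inducible RNA-binding protein, had the lower mean in sash at 10868 ± 3955 CPM against 18666 ± 4063 CPM (SD, n = 5 each).

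Rab38 and Mlph, known for the making and transport of pigment granules, both had lower means in sash. Rab38 stood at 73.1, 28.2, 122, 63.1 and 70.9 CPM in wild type and at 54.9 CPM in sash tumour 1, with the other sash tumours between 14.1 and 23.8 CPM (-1.45, SE 0.45). Mlph stood at 668 to 1958 CPM against 296 to 704 CPM (-1.11, SE 0.34, and -0.73 without wild-type tumour 4, its highest value). Ccr10, a receptor of lymphocytes that home to epithelia and 1 of the 4 higher chemokine genes counted above, stood at 9.04, 50.7, 7.35, 28.9 and 11.8 CPM in wild type and at 59.5, 86.9, 46.2, 39.9 and 119 CPM in sash (1.69, SE 0.57). Its difference was 2.90 without wild-type tumours 2 and 4, where it then passed in edgeR.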
